A study of Homo sapiens with 6 samples.

Results

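The fibroblast growth factors (FGFs) and their receptors were followed in BR cells, the brain metastatic variant of the human breast cancer line MDA-MB-231, with and without knockdown of the cancer-testis gene SPANXB1. The set held 8 genes of the 16570 in the expression table, taken by their gene symbols: the ligands FGF1, FGF2 and FGF5, the receptor kinases FGFR1, FGFR2, FGFR3 and FGFR4, and the receptor-like FGFRL1. The set was selected on values measured in these same samples, FGF5 above all, so the levels and differences of the 8 genes are a description. No p is given for them, and which of them the fit across all genes called is stated once, beside the share of all genes. FGF5 was lower in the knockdown cells, by 21.3% of its mean level. FGFR1 was 13.3% higher, FGFR4 stood at about 1 FPKM in the control cells and was 46.5% lower, and the other members overlapped between the groups or were close to absent.

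RNA-seq covered 3 samples of BR-shCON and 3 of BR-shSPANXB1 cells, all cultured from the same line. BR-shCON cells carried a lentiviral control vector, described by the study as empty. BR-shSPANXB1 cells carried a lentiviral short hairpin RNA (shRNA) against SPANXB1. Both were stable lines selected with puromycin, and 1 hairpin sequence was used, so that loss of SPANXB1 and any other action of that hairpin cannot be told apart. The study states for its experiments in general that each replicate used another batch of cells, while neither the labels nor its account of the sequencing says so for these samples. If they shared a culture, the p-values below measure only technical spread. The extraction protocol of the submitters speaks of the parent line and the BR line but of no knockdown, and the groups were read from the titles and cell types. The samples held 16294462 to 16666167 estimated counts each. SPANXB1 had 1434, 1654 and 1546 counts in BR-shCON cells and 691, 760 and 711 in BR-shSPANXB1 cells, a log2 fold change of -1.11 ± 0.05 (SE) with an adjusted p of 1.8e-14 by the edgeR quasi-likelihood test, although near-identical SPANX genes may share reads. All 4 markers listed for the parent line (VIM, CD44, CAV1 and AXL) were expressed, with a summed level of 2790 to 2860 FPKM in the control and 2920 to 3110 FPKM in the knockdown samples. Of these, AXL was called higher in the knockdown samples, with means of 263 and 310 FPKM and an adjusted p of 0.0001 by edgeR. Markers of luminal breast epithelium summed to 17.9 to 20.0 FPKM, most of it ERBB2, and endothelial markers to 2.8 to 3.48 FPKM. The endothelial marker KDR was at 2.32, 2.09 and 2.41 against 2.09, 1.64 and 1.64 FPKM, called lower at an adjusted p of 0.02 by edgeR. PECAM1, also endothelial, was at 1.10, 0.87 and 0.80 against 0.98, 1.45 and 1.11 FPKM and was not called. Fibroblast, leukocyte and neural markers summed to at most 1.25, 0.83 and 0.49 FPKM. Whether these levels bear on the results below was not tested.

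FGFs are signalling proteins that bind receptor tyrosine kinases on the cell surface together with heparan sulfate, a sugar chain carried by surface and matrix proteins. The bound receptor phosphorylates the adaptor FRS2 and passes the signal to RAS and ERK, PI3K and PLC-gamma, while inhibitors such as the SPRY, SPRED and DUSP6 proteins are induced and dampen it. In breast cancer the receptor genes are known for amplification, and FGF5 is best known as the secreted factor that ends the growth phase of the hair follicle.

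In both groups the family was carried by few genes. Levels are given in FPKM, fragments scaled to transcript length and to the number of mapped fragments, a scale per length on which genes can be compared. In BR-shCON cells the order of mean levels was FGFR1 (30.3 FPKM), FGF5 (28.8), FGFRL1 (9.50), FGF1 (2.36), FGFR4 (0.997), FGFR3 (0.360), FGF2 (0.050) and FGFR2 (listed at 0). FGFR1 and FGF5 overlapped in these samples, with ranges of 29.0 to 31.1 and 27.9 to 29.4 FPKM, while each later neighbour in the order lay below all values of the one before it. In BR-shSPANXB1 cells the order was the same, and FGFR1 and FGF5 no longer overlapped. Averaged over all 6 samples, FGFR1 ranked at percentile 82.6, FGF5 at 78.5 and FGFRL1 at 56.8 of all genes in the table.

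**Figure D1:**
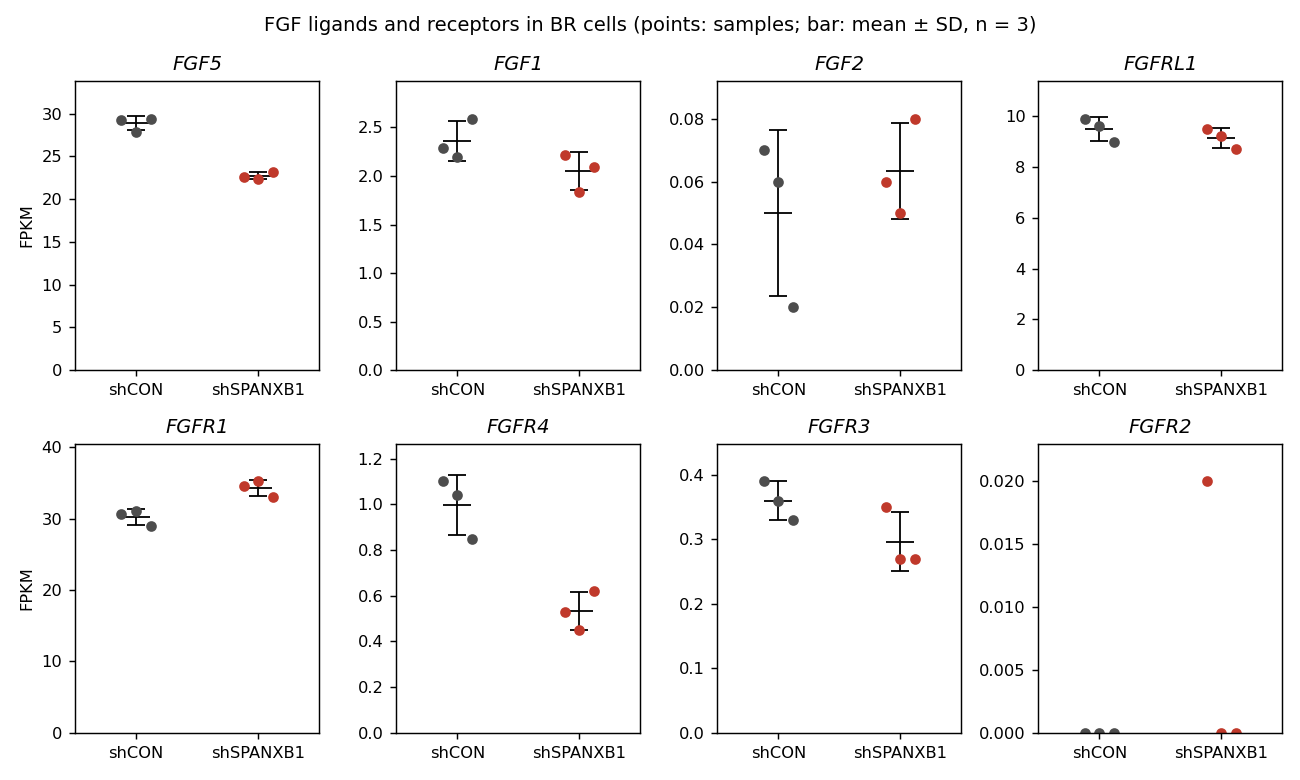
FPKM (y axis, from 0, with its own scale for each gene) of the 8 genes in the 3 BR-shCON samples (grey points) and the 3 BR-shSPANXB1 samples (red points), with the mean and SD as black bars except for FGFR2. The FGF5 points lie at 27.9 to 29.4 against 22.4 to 23.2 FPKM, the FGFR1 points at 29.0 to 31.1 against 33.0 to 35.2, and the FGFR4 points at 0.85 to 1.10 against 0.45 to 0.62.

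FGF5 was the leading ligand. Its level was 29.3, 27.9 and 29.4 FPKM in BR-shCON samples 1 to 3 and 22.6, 22.4 and 23.2 FPKM in BR-shSPANXB1 samples 1 to 3. All knockdown samples lay below all control samples, and the gap between the groups was wider than the range within either. The means were 28.8 ± 0.831 and 22.7 ± 0.403 FPKM (SD, n = 3 each), and the fitted log2 fold change was -0.36 ± 0.04 (SE) from 1843 to 2437 counts a sample. The value stayed between -0.38 and -0.33 under all 12 other settings, among them leaving out each sample in turn. As these are bulk samples, fewer cells that express a gene and less of its RNA in each cell cannot be told apart, here and for the genes below. FGF5 lies on the plus strand of chromosome 4 (GRCh38, chr4:80266599-80336680) and shares exonic bases with CFAP299, which had 4 to 8 counts a sample.

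The hairpin and the FGF5 message shared a short stretch of sequence, shown here because the hairpin set the groups apart by design. The target of the hairpin, listed in the materials of the study, matched in full only SPANXB1 among the protein-coding genes of GENCODE. A guide strand that is the exact reverse complement of this target, which was assumed here, would pair through its bases 2 to 8 with the letters in capitals. Those letters also occur in the 3′ UTR of both protein-coding FGF5 transcripts, on the plus strand at chr4:80288129-80288149.
shSPANXB1 target: gaggaggaggaatTCATAGAa
FGF5 3′ UTR: gtaacaaaagggtTCATAGAa

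Of the 21 aligned bases, 12 were identical, and the longest run of letters shared anywhere between the target and an FGF5 transcript was 9. The letters TCATAGA lay anywhere in a protein-coding transcript of 3246 of 19669 genes (16.5%). They lay in a 3′ UTR, as in FGF5, of 11.7% of the 11190 tested genes matched to GENCODE. These letters by themselves are thus common. No transcript of FGF1, FGF2, FGFR1, FGFR3, FGFR4 or FGFRL1 held TCATAGA, while 6 of 20 FGFR2 transcripts did. The longest run shared with the target was 12 letters in FGFR4, 10 in FGFRL1 and 9 in FGFR2 and FGFR3. It was 8 in FGFR1 and 7 in FGF1 and FGF2. How often runs of these lengths, the 9 of FGF5 included, occur over all genes was not counted. Among the 1305 tested genes with the letters in a 3′ UTR, 10.1% were called lower and 6.13% higher in the knockdown cells. Among the 9885 without them the shares were 6.57% and 6.87%. The longest 3′ UTR of a gene had a median of 3376 bases with the letters and 1214 without, and whether the sequence or the length goes with the lower levels was not tested.

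The other FGF ligands were low. FGF1, which lacks a classical secretion signal, was at 2.29, 2.2 and 2.59 FPKM without and 2.22, 1.84 and 2.09 with the knockdown. These ranges overlapped, and the log2 fold change of -0.21 ± 0.12 (SE) ranged from -0.27 to -0.13 over the other settings. FGF2, the basic FGF, had 2.13 to 8.47 estimated counts a sample, too few to read a difference at this depth. Its gene (chr4:122826708-122898236, plus strand) shares exonic bases with NUDT6 on the opposite strand, and the library did not mark strand, so that these counts could stem from either gene. FGF1 lies on chromosome 5 (chr5:142592178-142698070, minus strand).

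Of the 22 FGF genes listed for the family, 17 had a row in the table. The 12 rows other than FGF1, FGF2, FGF5, FGF11 and FGF13 held at most 25 counts and 0.30 FPKM in any sample: FGF6, FGF7, FGF8, FGF9, FGF12, FGF14, FGF17, FGF18, FGF19, FGF20, FGF22 and FGF23. FGF7, a factor that mesenchymal cells send to epithelium, was the highest of them in counts, with 15 to 25 a sample. FGF11 and FGF13 belong to the FGF homologous factors, which stay inside the cell and do not act through the receptors. FGF11 was at 1.00, 0.83 and 1.09 against 1.01, 0.67 and 1.13 FPKM, with full overlap. FGF13 was at 7.38, 6.58 and 6.16 FPKM without and 5.32, 4.76 and 4.6 with the knockdown, without overlap. FGF13 fell by 0.45 ± 0.09 (SE) on the log2 scale, with an adjusted p of 0.00062 by the edgeR quasi-likelihood test. One of its 8 protein-coding transcripts held the letters TCATAGA.

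FGFR1, the main receptor kinase of these cells, was at 30.7, 31.1 and 29.0 FPKM without and 34.6, 35.2 and 33.0 FPKM with the knockdown. All knockdown samples lay above all control samples, and sample 3 was the lowest of each group. The means were 30.3 ± 1.11 and 34.3 ± 1.11 FPKM (SD, n = 3 each), and the log2 fold change was 0.16 ± 0.04 (SE). It was 0.11 without BR-shCON sample 3, 0.14 without BR-shSPANXB1 sample 1 and 0.15 without BR-shSPANXB1 sample 2, and between 0.11 and 0.18 over all 12 other settings. Exons of FGFR1 (chr8:38400215-38468834, minus strand) overlap those of LETM2 on the opposite strand, which stood at 6.08 to 6.86 FPKM with overlapping groups.

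FGFR4, a receptor kinase known for its pairing with the bile acid regulator FGF19 in liver, was weakly expressed. It had 49, 47 and 39 counts without and 24, 20 and 28 counts with the knockdown, or 1.10, 1.04 and 0.85 against 0.53, 0.45 and 0.62 FPKM. The groups did not overlap. The mean over the 6 samples, 0.765 FPKM, was under the minimum of 1 FPKM set for the fit, and in the fit over all 16545 genes with no such minimum its log2 fold change was -0.91 ± 0.22 (SE). Under the other settings of that fit it lay between -1.03 and -0.38, the latter from log2(FPKM + 1), a scale that understates the change of low genes. FGFR4 lies at chr5:177086886-177098144 on the plus strand.

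The other receptor genes did not separate the groups. FGFR3 had 18 to 25 counts a sample, with 0.39, 0.36 and 0.33 against 0.35, 0.27 and 0.27 FPKM. FGFR2 had 1 count in BR-shSPANXB1 sample 1 and none in the other 5, each of which allows up to 3 counts. FGFRL1, which binds FGFs and heparan sulfate but has no kinase domain, was at 9.91, 9.61 and 8.99 FPKM without and 9.50, 9.24 and 8.70 with the knockdown. Its log2 fold change was -0.04 ± 0.06 (SE), and from -0.07 to -0.01 under the other settings. FGFR3 (chr4:1793293-1808872) and FGFRL1 (chr4:1009936-1026897) lie on the plus strand, and FGFR2 (chr10:121478334-121598458) on the minus strand.

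**Figure D2:**
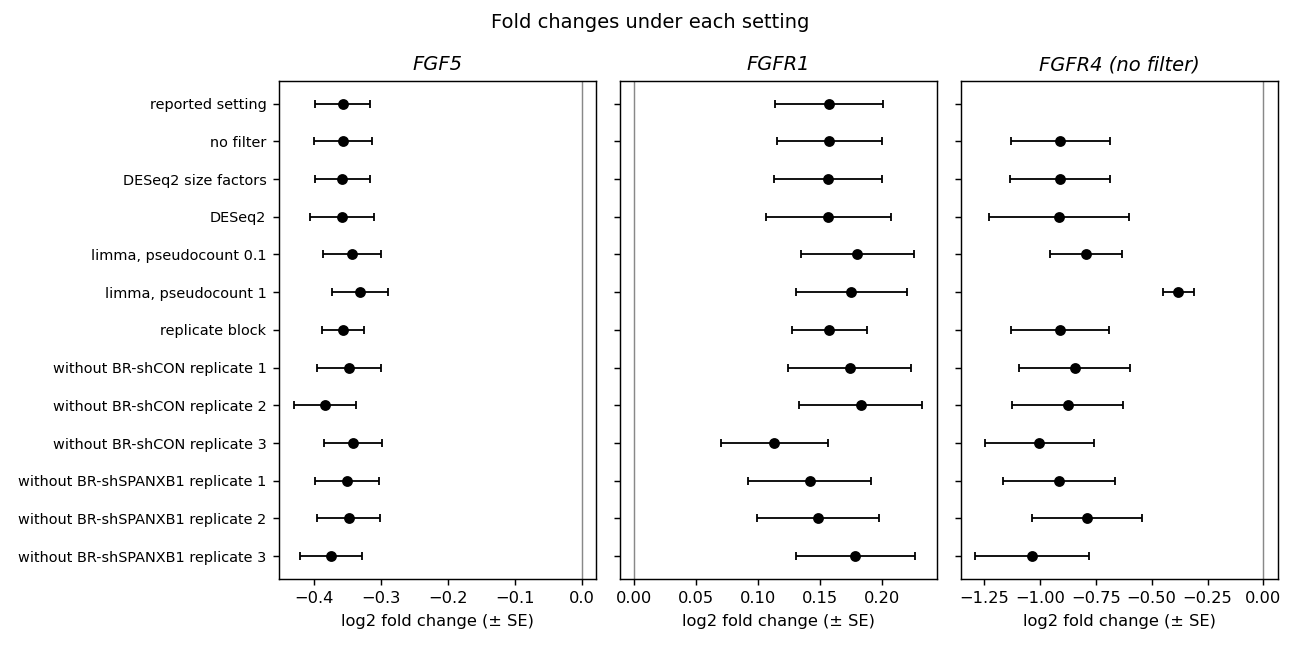
Difference between knockdown and control samples as log2 fold change (x axis, point with SE) for FGF5, FGFR1 and FGFR4 under each setting named on the y axis. FGFR4 was fitted with no minimum level and so has no value in the top row. FGF5 stays at -0.38 to -0.33, FGFR1 at 0.11 to 0.18 and FGFR4 at -1.03 to -0.38.

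FGF5 and FGFR4, the 2 members that were lower with no overlap, were compared in the bases before their first annotated start. Promoter sequences came from RefSeq on GRCh38.p14 and were used for 7 of the 8 genes, FGFR1 excepted. Both are shown from the plus strand, each ending at the last base before the first start annotated by RefSeq or GENCODE, at chr4:80266338-80266587 and chr5:177086665-177086885. Capitals mark GC boxes, the letters GGGCGG on either strand.
FGF5 promoter: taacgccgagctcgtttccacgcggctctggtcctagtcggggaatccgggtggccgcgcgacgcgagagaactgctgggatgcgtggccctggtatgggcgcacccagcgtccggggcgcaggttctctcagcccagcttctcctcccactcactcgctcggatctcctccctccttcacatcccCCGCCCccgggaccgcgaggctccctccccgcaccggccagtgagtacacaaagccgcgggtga
FGFR4 promoter: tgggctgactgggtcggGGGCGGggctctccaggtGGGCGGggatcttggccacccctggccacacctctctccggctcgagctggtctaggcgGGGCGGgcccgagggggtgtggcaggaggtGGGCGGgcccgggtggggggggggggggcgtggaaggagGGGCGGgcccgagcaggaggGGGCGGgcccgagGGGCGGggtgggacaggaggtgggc

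Of the features counted, the pair shared a high content of G and C and at least 1 GC box. The sequences were not compared in other ways. In the windows of 300 bases, which run 50 bases past the start, FGFR4 had 7 GC boxes and 78.7% G and C, and FGF5 had 1 GC box and 67.0%. Of 27305 promoters 44.6% held a GC box, and the median content was 58.3%. Neither window held the AP-1 site TGACTCA (4.92% of promoters), the YY1 core CCATNTT (15.9%) or the TATA box TATAAA (12%), each searched on both strands with overlaps counted. A window with no match says only that these letters are not in it. A later start annotated for FGF5 had 2 TATA boxes and 50.3% G and C.

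The make-up of the receptor messages followed from these levels. FGFR1 made up 95.4%, 95.7% and 96.1% of the summed FPKM of the 4 receptor kinases without and 97.5%, 98.0% and 97.4% with the knockdown. FGFR4 made up 3.42%, 3.20% and 2.82% against 1.49%, 1.25% and 1.83%. The FGFR1 level was 30.6 ± 3.17 times that of FGFR4 without and 65.6 ± 12.4 times with the knockdown (SD, n = 3 each). FGF5 held 90.2% ± 0.556 and 88.8% ± 1.08 of the summed FPKM of the 13 secreted FGFs in the table, shares whose ranges touched at 89.6%. The ratio of FGFR1 to FGF5 was 1.05 ± 0.064 without and 1.51 ± 0.075 with the knockdown (SD, n = 3 each), with no overlap between 0.986 to 1.11 and 1.43 to 1.57.

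The differences were set beside those of all genes. The edgeR fit over 11439 genes with a mean of at least 1 FPKM called 1579 at an adjusted p under 0.05 (13.8%), with 780 higher (6.82%) and 799 lower (6.98%) in BR-shSPANXB1 cells. Of the 8 members 4 entered this fit, FGF1, FGF5, FGFR1 and FGFRL1, and FGF5 among the lower and FGFR1 among the higher genes were called, FGFR1 no longer without BR-shCON sample 3, BR-shSPANXB1 sample 1 or BR-shSPANXB1 sample 2. FGF2, FGFR2, FGFR3 and FGFR4 were under the minimum level. The criteria of the study, which also ask for an absolute log2 fold change over 0.59, were met by 71 genes (0.621%) and by none of the members. The FPKM of the 2 groups did not overlap for 28.6% of all tested genes, and for 2 of the 4 tested members and FGFR4. The members were chosen on these values, so nothing is read from their counts. The median absolute log2 fold change of all called genes was 0.23, against 0.36 for FGF5 and 0.16 for FGFR1.

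The rest of the pathway was counted on lists of ligands, co-receptors, proteoglycans, adaptors, inhibitors and target factors. Outside the 8 genes, 106 of 118 listed genes had a row and 77 were tested. Of these, 17 were called (22.1%, beside 13.8% of all genes), 5 higher and 12 lower, and 60 were not. The median log2 fold change of the 77 was -0.02, against 0.00 for all tested genes. Neither the share nor the split toward lower levels held under every setting. Without BR-shSPANXB1 sample 2, 4 genes were called higher and 4 lower (10.4%, beside 9.10% of all genes). DESeq2 called 5 higher and 4 lower (11.7%, beside 8.92%), and limma 3 and 3 (7.79%, beside 7.57% with a pseudocount of 0.1). With the replicate number as a block, 9 were called higher and 20 lower (37.7%, beside 25.7%), among them ETV4, which was lower in each pair of same-numbered samples. FGF13, FLRT2, L1CAM, SDC4, STAT3 and MYC were called in all 12 settings, and the other 11 lost the call in at least 2.

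Proteins that hold, carry or release FGFs gave 5 calls of 7 tested genes, 4 of them lower, beside 13.8% called of all genes. By DESeq2, by limma and without BR-shSPANXB1 sample 2, FLRT2 (lower) and L1CAM (higher) were the 2 genes called. FLRT2, a membrane protein that binds FGF receptors, fell from 10.0 ± 0.250 to 8.06 ± 0.410 FPKM (SD, n = 3 each), with an adjusted p of 2.1e-05 by edgeR. FGFBP3, which frees FGFs from heparan sulfate, was at 1.71, 1.87 and 2.08 against 1.06, 1.27 and 1.53 FPKM, a log2 fold change of -0.56 ± 0.17 (SE) with an adjusted p of 0.023 by edgeR. That call was lost in 7 of 12 other settings. FGFBP1, a related carrier under the minimum level and named here after its values were seen, had 9, 6 and 6 counts without and 1, 1 and 2 with the knockdown. ANOS1, a matrix protein that binds heparan sulfate and modulates FGFR1 signalling, fell by 0.20 ± 0.06 (SE), and SYT1, which takes part in the release of FGF1, fell by 0.22 ± 0.07 on the log2 scale. ANOS1 kept the call in 6 and SYT1 in 5 of 12 other settings. L1CAM, a neural adhesion molecule that can activate FGF receptors, was at 4.36, 3.99 and 4.03 FPKM without and 7.71, 8.21 and 7.5 with the knockdown. It rose by 0.91 ± 0.07 (SE) on the log2 scale with an adjusted p of 7.6e-11 by edgeR, the largest difference among the 17. The klotho co-receptors of hormone-like FGFs, KL and KLB, had at most 1 and 7 counts a sample.

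Among the heparan sulfate proteoglycans 2 of 9 tested genes were called (22.2%, beside 13.8% of all genes), both higher. SDC4, a syndecan of the cell surface, rose from 128 ± 5.90 to 153 ± 1.70 FPKM (SD, n = 3 each), with an adjusted p of 4.5e-05 by edgeR. HSPG2, the basement membrane proteoglycan perlecan, rose from 6.40 ± 0.439 to 7.45 ± 0.121 FPKM, with an adjusted p of 0.003. Of 18 tested genes that build or edit the sugar chain, 2 were called (11.1%), both lower, and the remaining 16 were not. EXTL3, which starts the chain, and HS2ST1, a sulfotransferase, fell by 0.14 and 0.15 on the log2 scale. EXTL3 kept the call in 3 of 12 other settings and HS2ST1 in 5. DESeq2 and limma called none of the 18.

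Genes of signalling inside the cell were called in 2 of 27 adaptors and effectors (7.41%), beside 13.8% of all genes. Feedback inhibitors gave 2 of 8 (25.0%) and target transcription factors 3 of 7 (42.9%). By DESeq2 these lists gave 1, 1 and 2 calls in the same order, beside 8.92% of all genes. By limma with a pseudocount of 0.1 they gave 1, 0 and 1, beside 7.57%. Of the adaptors and effectors, the docking protein GAB1 fell by 0.28 ± 0.08 (SE) and the transcription factor STAT3 rose by 0.17 ± 0.04 on the log2 scale. FRS2, the adaptor next to the receptor, was at 5.06 and 5.6 FPKM in the control and knockdown means, with an adjusted p of 0.20 by edgeR. Of the feedback inhibitors, SPRED1 fell from 20.7 ± 1.16 to 17.9 ± 0.779 FPKM and the ERK phosphatase DUSP6 from 84.2 ± 2.32 to 78.2 ± 3.49 FPKM (SD, n = 3 each). DUSP6 overlapped between the groups and was called at an adjusted p of 0.045 by edgeR. SPRY2 and SPRY4 had log2 fold changes of -0.03 and -0.02. Of the target factors, MYC fell by 0.23 ± 0.04 (SE) and ETV1 by 0.19 ± 0.06, and the AP-1 subunit FOSL1 rose by 0.14 ± 0.04. GAB1, DUSP6, ETV1 and FOSL1 each kept the call in 6 of 12 other settings. ETV4 and ETV5 were not called in the reported fit, at log2 fold changes of -0.14 and 0.05. ETV4 was called with the block and without BR-shCON sample 3.

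The letters TCATAGA of the hairpin target were also looked up in these lists. They lay in a 3′ UTR of 4 of the 12 pathway genes called lower, FGF13, FGFBP3, FLRT2 and GAB1, of none of the 5 called higher and of 13 of the 60 not called. Over all genes they lay in a 3′ UTR of 11.7% of the 11190 tested genes matched to GENCODE and of 16.9% of the 781 called lower. The median of the longest 3′ UTR was 4379 bases in the 12 pathway genes, 1149 in the 5 and 2666 in the 60, and a part of length or sequence in the counts was not tested.

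Among the genes whose level followed FGF5 most closely over the 6 samples were CCN3, GMFB, SUPT16H and DZIP3, with Pearson correlations of log2(FPKM + 0.1) between 0.996 and 0.998. CCN3, a secreted matricellular protein, was at 52.8, 50.5 and 53.9 FPKM without and 42.0, 42.2 and 43.4 with the knockdown. GMFB, a regulator of actin branching, was at 78.9, 75.7 and 82.9 against 50.7, 50.2 and 54.5 FPKM. Like FGF5, both had sample 2 lowest among the controls. The 6 samples form 2 groups, and of 11438 genes compared 478 had a correlation above 0.9, so that a high value mostly restates the difference between the groups. The correlation of FGFR1 with FGF5 was -0.951 in the same sense.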

How the data were processed

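RNA-seq data of 3 BR-shCON and 3 BR-shSPANXB1 samples were analysed, grouped by titles and cell types. The authors deposited 1 table with estimated counts, not normalized, and FPKM, scaled by the authors to transcript length and mapped fragments. The submitters' processing notes name HISAT2 2.0.4 and Bowtie2 2.2.5. For the counting program, the sources used here give none. TPM values and averages (12 columns) were not used.

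Estimated counts (14.5% not whole) were rounded and tested with edgeR 4.0.16 (R 4.3.3), using TMM factors, the robust quasi-likelihood method and p-values adjusted after Benjamini and Hochberg, on the 11439 genes whose FPKM averaged 1 or more. The fit was tested on simulated data. At 16294462 to 16666167 counts per sample, precision rests on the 3 samples per group, and for low genes on counting error. The members, lists and tests were chosen with earlier results of these data known. Named genes were the 8 members, SPANXB1, the other FGF ligands, every called gene of each list and the 5 genes most correlated with FGF5, of which 1 is not reported here, and others were named after their values were seen. Positions and transcripts came from GENCODE.

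Replicate numbers occur in both groups. After subtraction of the group means, samples with the same number correlated across genes at 0.127, 0.144 and 0.191, each sample best with its own number, so that they behave as pairs. The reported values come from the unpaired fit, the design chosen first, and the paired fit is given where it changes a count or a call. What a number shares is not stated. Alternatives were the replicate block, DESeq2 1.42.0 and its size factors, limma 3.58.1 on log2(FPKM + 0.1) and log2(FPKM + 1), no minimum level, and leaving out each sample. Fits of FGFR3, FGFR4 and FGFBP1 without the minimum level under each alternative were added after seeing the data.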

Additional observations from a re-analysis of the deposited data

How the results depend on the processing

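The 1579 called genes became 2935 with the replicate block, 1020 by DESeq2, 866 and 873 by limma with pseudocounts of 0.1 and 1, and 1041 to 1466 without 1 sample, the lowest without BR-shSPANXB1 sample 2. The 71 genes past the criteria of the study became 30 by limma with a pseudocount of 1 and 64 to 79 without 1 sample. The 17 pathway calls became 29 with the block, 9 by DESeq2, 6 by limma with either pseudocount and 8 to 16 without 1 sample, the lowest again without BR-shSPANXB1 sample 2. All 1579 genes and all 17 pathway genes were called in the paired fit too, and the block ended no call of a named gene. The causes were not tested. Leaving out a sample changed both the number of samples and which samples were compared. Limma split its 866 calls into 516 higher and 350 lower.

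Of the other values computed for single genes, none changed direction. Of 321 for called genes, those of the members FGF5, FGFR1 and FGFR4 included, 244 kept the call under an alternative and 77 lost it. The 35 for FGF1, FGFRL1 and FGFR3, which had no call, gained none. In this tally FGFR3, FGFR4 and FGFBP1 were judged by the fit with no minimum level, the others by the reported fit. The members were selected on these data, so their part in the tally is a description and nothing is read from it. Depth limits FGF2, FGFR2, FGFR3 and FGFBP1, whose counts per sample stayed at 25 or fewer.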
